A study of Mus musculus with 16 samples.

Results

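Bambi, Ihh and 7 further genes of BMP and TGF-beta signalling were followed in 16 RNA-seq libraries of Paneth cells, the antimicrobial secretory cells at the base of the crypts of the mouse small intestine. The 9 genes, out of 55414 in the deposited table, were chosen by name. Bambi and Ihh were picked because they were among the strongest decreases after tumour necrosis factor (TNF), and Id1, Id2, Id3, Smad6, Smad7, Bmpr1a and Tgfbr2 were added as their family. All 9 passed the filter on low counts. Paneth cells had been sorted by flow cytometry from C57BL/6J mice that received PBS (vehicle) or DEX and, 1 h later, PBS or TNF, with sampling 3 h later. DEX commonly stands for the synthetic glucocorticoid dexamethasone, although neither the labels nor the methods give the full name. The 4 groups of 4 libraries are named by their first and second injections: PBS+PBS (the control), PBS+TNF, DEX+PBS, and the combination DEX+TNF. The series calls the libraries biological replicates, and the study states that its samples came from individual mice. Levels below are CPM, a gene's reads scaled to a common library size and normalized between libraries. Folds are on the log2 scale with the standard error (SE), and a gene was called at an adjusted p under 0.05.

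BMPs and TGF-beta signal through paired type I and type II receptor kinases (Bmpr1a is a type I receptor for BMPs, Tgfbr2 the type II receptor for TGF-beta) that activate SMAD transcription factors. The pathway induces its own brakes. Bambi is a receptor-like protein without a kinase domain that blocks receptor signalling, Smad6 and Smad7 are inhibitory SMADs, and Id1, Id2 and Id3 are classic BMP target genes whose products hold E proteins away from DNA. Ihh, Indian hedgehog, is a secreted ligand that intestinal epithelium sends to the stroma beneath it, where it acts through the receptor Ptch1.

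Promoter sequence was at hand for 6 of the 9 genes in a RefSeq table (build GRCm38.p6), and each was found once on GRCm39. Those of Ihh (chr1:74990782-74991081, minus strand), Smad6 (chr9:63929292-63929591, minus strand) and Tgfbr2 (chr9:116004382-116004681, minus strand) are shown, because these 3 genes differed most between TNF and PBS libraries among the 6. Each window runs from 250 bases before to 50 after the gene start of the RefSeq table. In GENCODE M39 the genes Smad6 (from 63929793, minus strand) and Tgfbr2 (from 116004800) start further upstream. Their windows therefore lie inside the annotated genes, while that of Ihh spans its start (74990837). Capitals mark matches, on either strand, to the short SMAD element CAGAC or the palindromic SMAD element GTCTAGAC.
Ihh: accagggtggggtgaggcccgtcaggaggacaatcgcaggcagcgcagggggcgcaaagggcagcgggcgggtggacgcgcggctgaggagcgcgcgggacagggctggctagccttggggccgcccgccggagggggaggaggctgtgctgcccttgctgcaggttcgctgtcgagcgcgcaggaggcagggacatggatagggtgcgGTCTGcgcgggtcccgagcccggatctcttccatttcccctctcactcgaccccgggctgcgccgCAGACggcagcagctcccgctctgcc
Smad6: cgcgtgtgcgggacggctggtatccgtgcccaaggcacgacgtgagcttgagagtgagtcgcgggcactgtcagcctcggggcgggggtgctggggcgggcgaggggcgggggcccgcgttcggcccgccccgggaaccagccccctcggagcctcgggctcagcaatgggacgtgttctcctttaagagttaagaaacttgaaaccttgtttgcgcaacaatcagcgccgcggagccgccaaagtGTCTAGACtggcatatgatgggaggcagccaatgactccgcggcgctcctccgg
Tgfbr2: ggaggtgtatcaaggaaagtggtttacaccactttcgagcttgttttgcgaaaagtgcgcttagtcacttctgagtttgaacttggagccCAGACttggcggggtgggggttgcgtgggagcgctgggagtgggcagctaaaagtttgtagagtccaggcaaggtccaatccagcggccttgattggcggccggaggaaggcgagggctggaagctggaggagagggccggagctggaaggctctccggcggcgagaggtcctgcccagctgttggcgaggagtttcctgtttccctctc

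Smad6 held the palindromic element once, at position 247 of the 300 bases, and 0.213% of 32851 promoters of the same length held it. The short element CAGAC occurred 2 times in Ihh, 2 times in Id3 and 1 time in Tgfbr2, and is common (49.6% of promoters). The GC-rich SMAD element GGCGCC occurred in Id2 and Bmpr1a (11.9%), and the E-box CANNTG in Id2, Smad6 and Tgfbr2 (72.3%). The NF-kB motif was found in none of the 6 windows and in 8.46% of all promoters. A match says only that the letters are there.

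Library totals ran from 7286307 to 15832111 counts. Nfkbia, the NF-kB feedback inhibitor that TNF induces, was at 15.6 to 24.1 CPM in PBS+PBS and reached 277 to 337 in PBS+TNF, with 19.5 to 27.3 in DEX+PBS. In DEX+TNF it was 330.0 and 382 CPM in libraries 1 and 2 and 28.3 and 41.0 in libraries 3 and 4. The libraries labelled DEX+TNF 3 and 4 thus stood near the libraries without TNF, though both were above the highest of them (27.3 CPM). Tnfaip3, a second NF-kB target, showed the same split (115 and 109.6 against 2.25 and 7.38 CPM), with at most 6.53 CPM in libraries without TNF. The files do not tell whether the mice of DEX+TNF 3 and 4 received both injections as labelled, and DEX+TNF below means the label. Differences that rest on DEX+TNF are therefore given with and without these 2 libraries, and without them they are descriptions, since they were set aside for a response to TNF.

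Paneth cell markers (6 genes) made up 407613 to 609455 CPM before normalization. The 10 enterocyte markers summed to 265 to 467 CPM in PBS+PBS and reached 49.4 to 201 in PBS+TNF, with 250.04 to 477 in DEX+PBS, and Lct, Alpi and Apoa4 had no count in 10, 8 and 8 of the 16 libraries. In DEX+TNF this sum was 171, 149, 200 and 1135 CPM in libraries 1 to 4. Library DEX+TNF 4 also had the highest sums of 5 tuft cell markers (857 CPM), 4 stem cell markers (1825 CPM) and 4 cycling cell markers (199 CPM). In DEX+TNF 1 to 4 the tuft sum was 1.56, 0.165, 117 and 857 CPM, and that of 5 enteroendocrine markers 0.0869, 0, 12.0 and 17.3. The part of this division in the values without DEX+TNF 3 and 4 was not tested. The 7 goblet markers summed to 9364 to 20284 CPM in PBS+PBS and 16640 to 22931 in PBS+TNF. In DEX+PBS they summed to 13481 to 21028 and in DEX+TNF to 9644 to 15858. The 6 stromal markers summed to at most 1.72 CPM and the 4 red blood cell markers to at most 0.970, with Col3a1 and Hbb-bt at 0 in all libraries. In sorted cells measured in bulk, fewer cells of a type and less RNA per cell cannot be told apart.

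Bambi was by far the most abundant of the 9 genes at baseline. Its level per kilobase of exon in PBS+PBS was 38.3 ± 17.7 CPM (SD, n = 4), without overlap with Bmpr1a at 4.45 ± 0.682. Ihh followed at 2.71 ± 1.05, Id3 at 1.29 ± 1.55, Tgfbr2 at 0.689 ± 0.272, Id1 at 0.685 ± 0.291, Id2 at 0.603 ± 0.708, Smad7 at 0.326 ± 0.125 and Smad6 at 0.145 ± 0.101. From Bmpr1a downwards each gene overlapped the next. In PBS+TNF the order was different, with Tgfbr2 first at 5.19 ± 1.59 per kilobase, Bmpr1a at 4.00 ± 0.357 and then Bambi at 3.71 ± 1.61, all overlapping their neighbours.

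With TNF alone the feedback inhibitor Bambi and the ligand Ihh stood about 10-fold lower and the receptor Tgfbr2 rose more than 7-fold. Bambi (ENSMUSG00000024232; GRCm39 chromosome 18, 3507871 to 3516404) was at 289.9, 126, 112 and 257 CPM in PBS+PBS and at 25.6, 23.1, 20.3 and 7.13 in PBS+TNF. The groups did not overlap, and the lowest PBS+PBS library lay well above the highest PBS+TNF library. The fitted difference was -3.37 (SE 0.51), or 10.4-fold lower. Ihh (ENSMUSG00000006538; chromosome 1, 74984474 to 74990837) was at 6.17, 6.77, 7.10 and 13.1 CPM in PBS+PBS and at 0.771, 0.543, 1.20 and 0.693 in PBS+TNF, from 4 to 17 counts per library. Its difference was -3.35 (SE 0.68), or 10.2-fold lower, again without overlap. These values chose both genes and so carry no test here. In the set of 7817 genes averaging 5 CPM or more, of which 460 were called lower, they were the second and the third largest decreases.

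**Figure D1:**
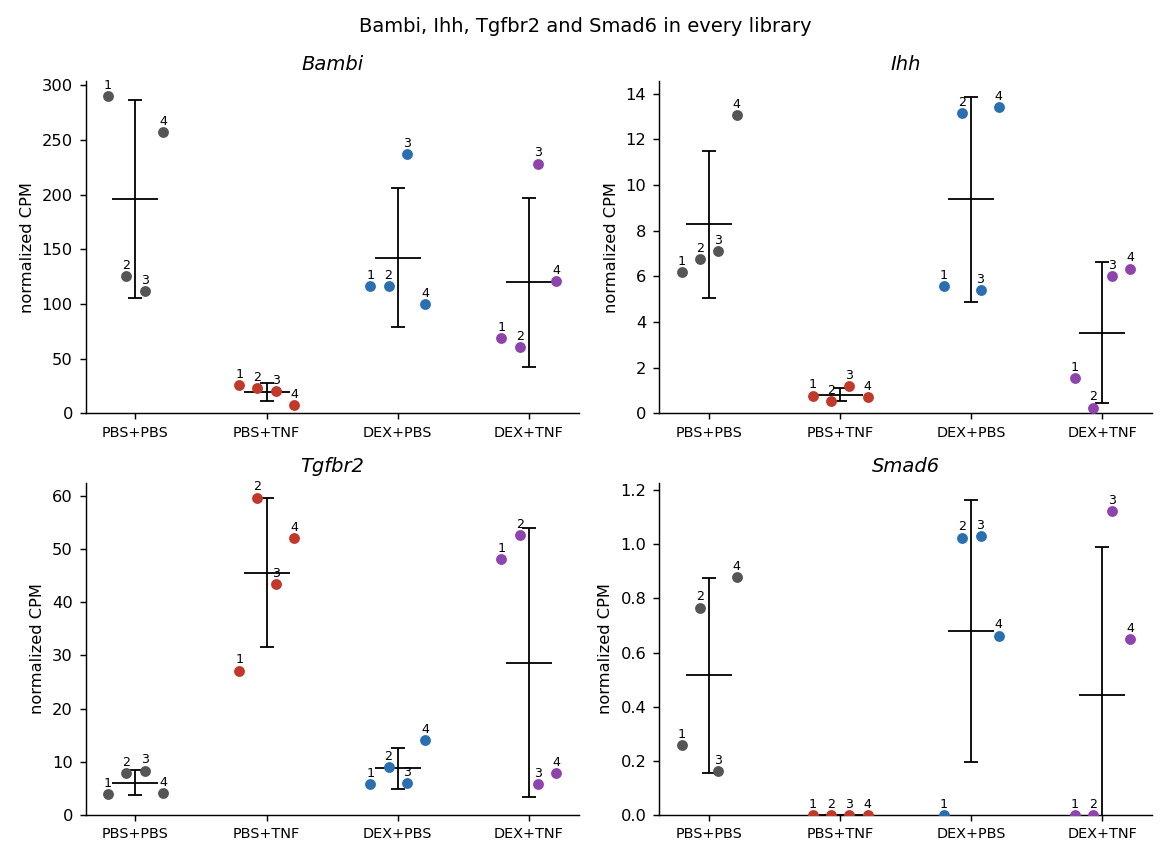
Normalized CPM of Bambi, Ihh, Tgfbr2 and Smad6 in each of the 16 libraries (numbered points, by group), with the group mean and SD (n = 4). Bambi and Ihh are low and Tgfbr2 high in the 4 PBS+TNF libraries, and in DEX+TNF libraries 1 and 2 part from libraries 3 and 4, most widely for Tgfbr2 (48.2 and 52.7 against 5.72 and 7.78 CPM).

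Tgfbr2 (ENSMUSG00000032440; chromosome 9, 115913361 to 116004800) was at 3.86, 7.92, 8.33 and 4.15 CPM in PBS+PBS and at 27.2, 59.7, 43.4 and 52.1 in PBS+TNF. All 4 TNF libraries were above all 4 controls. It rose by 2.90 on the log2 scale (SE 0.60), or 7.45-fold, with an adjusted p of 0.00531 in edgeR's quasi-likelihood test. Tgfbr2 was the single call among the 7 genes not used in the choice (1 of 7), in a comparison that called 12.5% of all 11809 tested genes, 7.15% higher and 5.35% lower. Bmpr1a, the BMP type I receptor, showed no such shift, at 28.8 to 41.6 CPM in PBS+PBS and 26.9 to 32.7 in PBS+TNF (-0.15, SE 0.16, adjusted p = 0.616).

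Smad6 (ENSMUSG00000036867; chromosome 9, 63860341 to 63929793), an inhibitor of BMP signalling in particular, had few reads throughout. It had 3, 12, 3 and 7 counts in PBS+PBS and 0 in each of the 4 PBS+TNF libraries. With a floor of 3 counts over the PBS+TNF group, the pooled reads put Smad6 8.67-fold higher in PBS+PBS. This value leaves out the spread between mice and the read sampling of the 25 PBS+PBS counts. The all-gene test did not call Smad6 (adjusted p = 0.0575). The call hangs on the settings. The adjusted p was 0.0175 in DESeq2, and in edgeR 0.0371 without the low-count filter and 0.0467 with a replicate block. It was 0.0225 without DEX+TNF 3 and 4, 0.0542 with upper-quartile factors and 0.0583 with median-of-ratios factors. With a single library left out it ran from 0.0423 to 0.119. With only the groups compared, Smad6 did not pass the low-count filter and had no test. Its test here thus rests on the filter over all 16 libraries. It passed without DEX+PBS 1 and without DEX+TNF 1, 2 or 3, each left out alone.

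The target genes of BMP signalling were low and scattered. Id1 lay between 0.181 and 1.88 CPM in these 2 groups, Id2 between 0.514 and 5.78, Id3 between 0.428 and 6.41, and the inhibitory Smad7 between 0.385 and 2.14. The highest Id2 and Id3 values both came from library PBS+PBS 4, in which Id1 and Smad7 were highest as well. Its normalization factor was 0.503, against 1.04, 1.10 and 1.31 in PBS+PBS 1 to 3, which raises all its CPM values. In counts, PBS+PBS 4 was not the highest of its group for Id1 (11, 11, 25 and 15) or Smad7 (23, 15, 21 and 17). The groups overlapped for each of these genes, and no difference passed the test: Id1 -0.40 (SE 0.74), Id2 -0.39 (SE 0.90), Id3 -0.82 (SE 0.87) and Smad7 -0.24 (SE 0.50). Without PBS+PBS 4 the Id2 and Id3 values turned to 0.79 and 0.37. The standard errors were as large as these differences or larger, and the spread between libraries of a group was wide (6 to 46 counts for Id2 and 5 to 51 for Id3 in PBS+PBS).

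**Figure D2:**
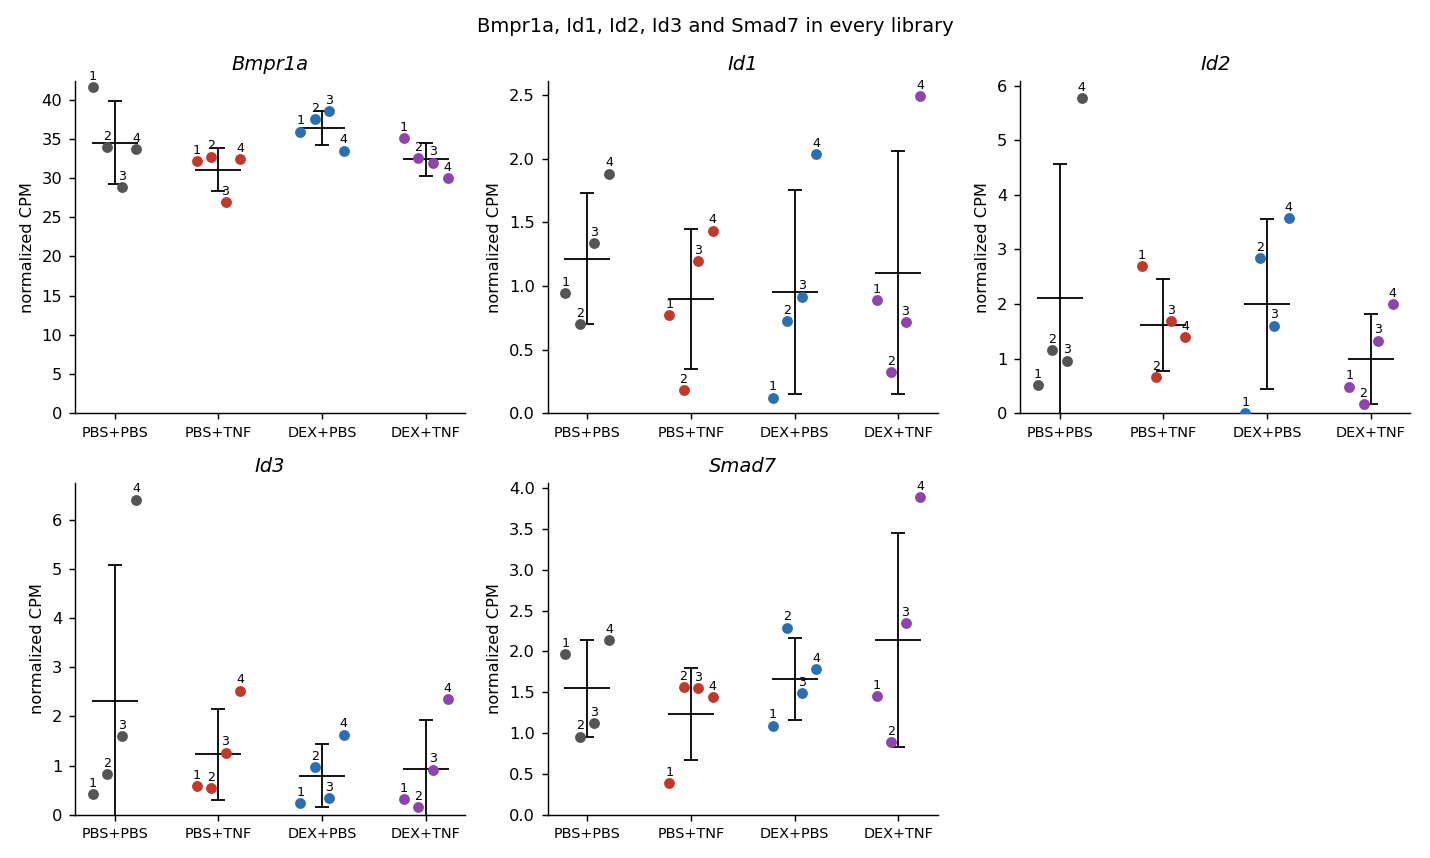
Normalized CPM of Bmpr1a, Id1, Id2, Id3 and Smad7 in each library (numbered points, by group), with the group mean and SD (n = 4). Groups that differ in a single injection overlap in every panel, and libraries with the number 4 hold most of the highest Id1, Id2 and Id3 values.

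With DEX before PBS, no difference among the 7 genes outside the choice passed the test, and the errors were wide for the low genes. Bambi was at 116, 116, 237 and 99.98 CPM in DEX+PBS (-0.46 against PBS+PBS, SE 0.46) and Ihh at 5.58, 13.1, 5.38 and 13.4 CPM (0.20, SE 0.58). Both overlapped their PBS+PBS values. Tgfbr2 was at 5.83, 8.98, 5.96 and 14.1 CPM (0.52, SE 0.57), and Smad6 had 0, 17, 9 and 13 counts. The largest difference among the 7 genes outside the choice was that of Id3 (-1.41, SE 0.88, from -2.03 to -0.21 with single libraries left out), and none of the 7 was called by edgeR (0 at an unadjusted p under 0.05, 0 in DESeq2). The comparison called 0.00847% of all genes, 1 in number.

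TNF after DEX was compared with DEX+PBS, in libraries that played no part in choosing Bambi and Ihh. Bambi was at 69.0, 60.6, 228 and 121 CPM in DEX+TNF. Libraries 1 and 2 lay below all 4 DEX+PBS libraries, and libraries 3 and 4 within their range. Over all 8 libraries the difference was -0.25 (SE 0.46, edgeR adjusted p = 0.964), and a two-sided exact permutation test of the mean log2 CPM gave p = 0.6 (difference -0.37, adjusted p = 0.6 over the 2 genes, smallest possible p 0.0286). Without DEX+TNF 3 and 4 it was -1.13 (SE 0.51). Ihh was at 1.53, 0.243, 6.02 and 6.33 CPM, again with libraries 1 and 2 below all DEX+PBS libraries. Its difference was -1.41 (SE 0.60, edgeR adjusted p = 0.395), with an exact permutation p of 0.171 (adjusted 0.343), and -3.40 (SE 0.64) without DEX+TNF 3 and 4.

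Tgfbr2 showed the same division of the DEX+TNF group. It was at 48.2 and 52.7 CPM in libraries 1 and 2 and at 5.72 and 7.78 in libraries 3 and 4, of which the first pair lay above and the second within or just below the DEX+PBS range of 5.83 to 14.1. The difference was 1.69 (SE 0.57, adjusted p = 0.245), and 2.51 (SE 0.37) without the 2 libraries. Smad6 had 0, 0, 11 and 13 counts in DEX+TNF 1 to 4. Against the 0 counts of libraries 1 and 2 together, with a floor of 3 counts, the pooled DEX+PBS reads were 6.06-fold higher. This value leaves out the spread between mice and the read sampling of the 39 DEX+PBS counts. Library DEX+PBS 1 had 0 counts as well. None of the 9 genes was called by edgeR over all 8 libraries (2 at an unadjusted p under 0.05, Ihh and Tgfbr2, and 0 in DESeq2), in a comparison that called 0.339% of all genes. Without DEX+TNF 3 and 4, 2 of the 9 passed the threshold, Ihh and Tgfbr2, while 10.5% of all genes did.

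**Figure D3:**
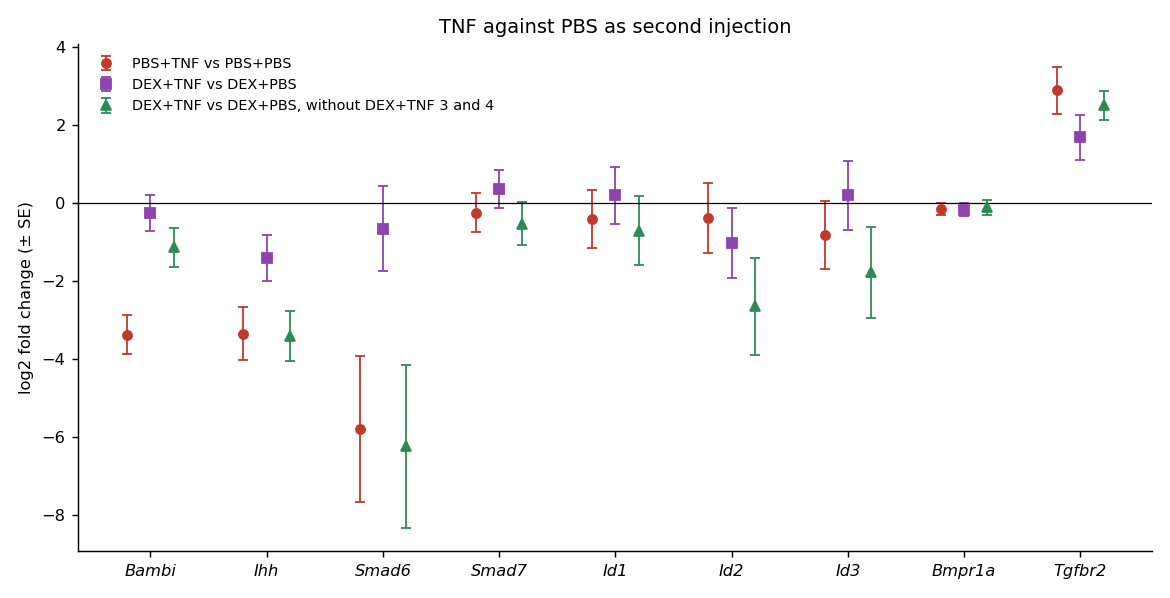
Log2 fold change (± SE) of the 9 genes for TNF against PBS as the second injection, after PBS (circles), after DEX (squares) and after DEX without libraries DEX+TNF 3 and 4 (triangles). With the 2 libraries left out, Ihh moves from -1.41 to -3.40 and Tgfbr2 from 1.69 to 2.51, near their values after PBS, and Bambi from -0.25 to -1.13 against -3.37 after PBS.

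Between the libraries labelled DEX+TNF and PBS+TNF, Bambi was higher in the former. All 4 DEX+TNF libraries (60.6 to 228 CPM) lay above all 4 PBS+TNF libraries (7.13 to 25.6 CPM), including libraries 1 and 2. The difference was 2.66 (SE 0.50), and 1.78 (SE 0.47) without DEX+TNF 3 and 4. Since the low PBS+TNF values chose Bambi, this is a description with no test. For Ihh the difference was 2.14 (SE 0.67) over all libraries and 0.16 (SE 0.65) without the 2. For Tgfbr2 it was -0.68 (SE 0.55, adjusted p = 0.676) and 0.14 (SE 0.38), with libraries 1 and 2 inside the PBS+TNF range. Smad6 had no count in DEX+TNF 1 and 2 or in any PBS+TNF library. None of the 7 genes outside the choice was called by edgeR (1 at an unadjusted p under 0.05, Smad6, and 0 in DESeq2), and the comparison called 0.339% of all genes.

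The interaction, the TNF effect after DEX minus that after PBS, came to 3.12 (SE 0.67) for Bambi and to 2.24 (SE 0.61) without DEX+TNF 3 and 4. It was 1.94 (SE 0.88) for Ihh and -0.05 (SE 0.80) without them. Tgfbr2 had -1.20 (SE 0.80) and -0.38 (SE 0.51). No interaction passed the threshold in edgeR among the 7 genes (1 at an unadjusted p under 0.05, Smad6, and 0 in DESeq2) or among all 11809 (0%, with 642 at an unadjusted p under 0.05 and 8 calls in DESeq2). The values of Bambi and Ihh share the PBS+TNF libraries that chose them and are not tested.

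Across the 16 libraries Bambi and Ihh ran opposite to Nfkbia, and Tgfbr2 ran with it. Pearson's r on log2 CPM with Nfkbia was -0.83 for Bambi, -0.93 for Ihh, -0.76 for Smad6 and 0.95 for Tgfbr2, against -0.41 for Bmpr1a, -0.37 for Smad7 and -0.19, -0.15 and -0.20 for Id1, Id2 and Id3. These are descriptions, as the points share their groups and the injections. Bambi and Ihh were also chosen for their fall with TNF, which raised Nfkbia, so their negative r follows in part from the choice.

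**Figure D4:**
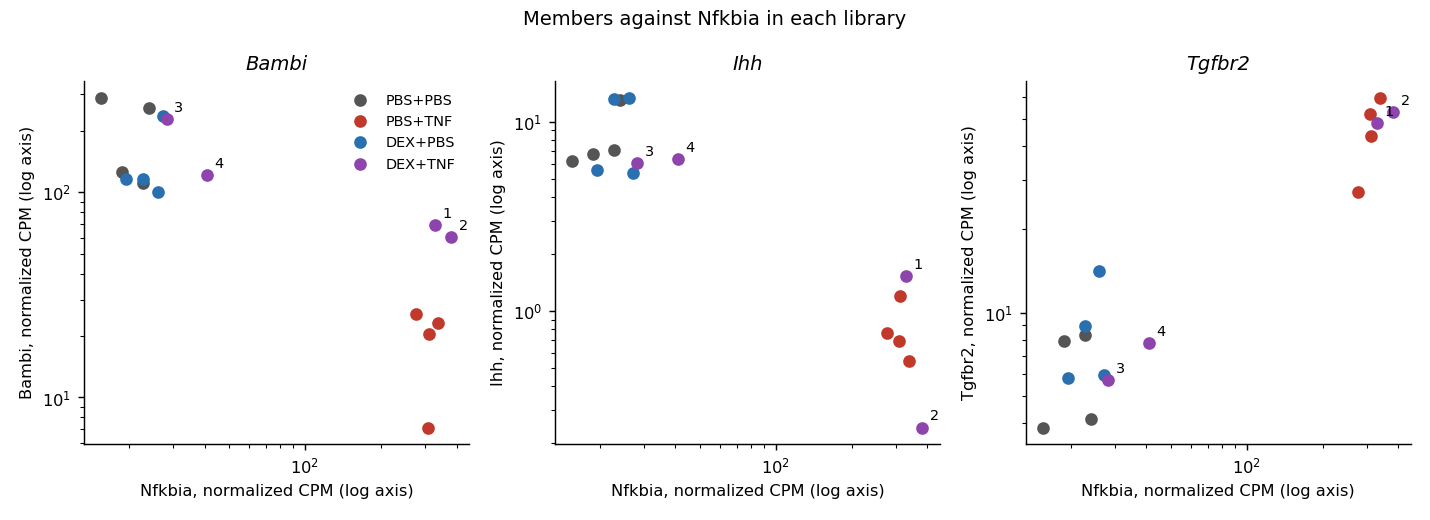
Bambi, Ihh and Tgfbr2 against Nfkbia in each of the 16 libraries, in normalized CPM on log axes, with DEX+TNF libraries numbered. Libraries DEX+TNF 3 and 4 lie near the libraries injected with PBS second, and DEX+TNF 1 and 2 lie at the Nfkbia level of PBS+TNF with more Bambi (69.0 and 60.6 CPM) than any PBS+TNF library.

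Of 7816 genes averaging 5 CPM or more, those whose log2 CPM followed Bambi most closely over the 16 libraries were Nmnat3 (r = 0.94), Pcmtd2 (0.93), Hpgd (0.92), Pnma8b (0.92) and Scml4 (0.91). Hpgd, the enzyme that inactivates prostaglandins, lay at 177 to 253 CPM in PBS+PBS but 22.9 to 41.2 in PBS+TNF, and after DEX at 214 to 486 with PBS against 77.8 to 437 with TNF. As for Bambi, no DEX+TNF library overlapped PBS+TNF. Hpgd was picked for its likeness to Bambi over these libraries, so the shared pattern follows in part from that choice. Those closest to Ihh were Tbl3 (0.94), Tmem41a (0.94), Noa1 (0.93), Lfng (0.92) and Fbxo31 (0.92). Lfng, a glycosyltransferase that modifies Notch receptors, lay at 9.92 to 22.4 CPM in PBS+PBS but 1.51 to 3.85 in PBS+TNF, and after DEX at 10.8 to 13.9 with PBS against 0.728 to 10.3 with TNF. Ihh and Bambi themselves had r = 0.76.

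The rest of the pathway was covered by 8 lists with 93 genes, of which 52 could be tested and 15 had no count in any library. For a total of 0 counts, the 95% upper limit from read sampling alone is an expected total of about 3 over all libraries. The 15 included the ligand Bmp4, the antagonist Grem1 and, from the hedgehog pathway, Gli1 and Hhip, which are induced in cells that respond to hedgehog ligands. The most abundant gene of each list per kilobase was Bmp7 among ligands (10.5 CPM), Acvr1b among receptors (5.78), Twsg1 among secreted antagonists (3.23), Smad4 among the SMADs (4.38), Tob1 among intracellular regulators (15.1), Junb among other targets (34.2), Boc in the hedgehog pathway (2.31) and Tcf12 among E proteins (5.69).

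With TNF alone 11 of the 52 were called, 6 higher and 5 lower, beside 12.5% of all genes (7.15% higher and 5.35% lower), and the median log2 fold change was -0.16 against -0.03 over all genes. Of the receptors 1 of 7 was called. Acvr1c, a type I receptor for activins and Nodal, fell from between 42.7 and 61.0 CPM to between 3.42 and 7.59 (-3.19, SE 0.52, edgeR adjusted p = 0.00134). Of the ligands 2 of 7 were called. Bmp2 rose from 7.16 to 9.13 CPM to 14.8 to 23.0 (1.17, SE 0.32), and Bmp3, a BMP that opposes other BMPs, fell (-1.30, SE 0.42). None of 4 secreted antagonists (2 at an unadjusted p under 0.05, 2 in DESeq2) and none of 5 signalling SMADs (1 and 1) was called by edgeR.

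Of the 11 intracellular regulators 3 were called higher and none lower by edgeR (4 at an unadjusted p under 0.05 and 4 in DESeq2). The fourth was Tob1, an antiproliferative protein that binds SMADs, at 39.9 to 48.1 CPM in PBS+PBS and 22.5 to 40.6 in PBS+TNF (-0.60, SE 0.20, adjusted p = 0.0550). Pmepa1, a TGF-beta-induced inhibitor of SMAD signalling, rose by 1.54 (SE 0.42). Tgif1, a SMAD corepressor, rose from 15.7 to 18.2 CPM to 36.2 to 44.7 (1.19, SE 0.22), and Nedd4l, a ubiquitin ligase for activated SMADs, rose by 0.83 (SE 0.25). Of the other targets 2 of 7 were called. Junb, an AP-1 gene that TNF also induces in many cells, rose by 3.03 (SE 0.49). Atoh8, a helix-loop-helix factor downstream of BMP, fell from between 3.64 and 9.85 CPM to between 0.193 and 0.891 (-3.57, SE 0.61).

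In the hedgehog pathway 2 of 8 tested genes were called. Ptch1, the receptor and itself a target of the pathway, fell from between 5.78 and 9.34 CPM to between 0.385 and 3.44 (-1.75, SE 0.48), and Cdon, a hedgehog co-receptor, rose (1.45, SE 0.47). Of the 3 E proteins, the partners that Id proteins bind, Tcf12 fell from between 106 and 184 CPM to between 35.1 and 59.1 (-1.75, SE 0.27). Acvr1c, Atoh8, Junb, Tcf12 and Tgif1 were called under all 23 alternatives, and the other 6 were not. The number called was 5 without PBS+PBS 1, 6 without PBS+TNF 2 and 6 without PBS+TNF 4.

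After DEX the same lists held 1 call among 52 over all 8 libraries, beside 0.339% of all genes. Junb rose by 2.29 (SE 0.48, adjusted p = 0.0491) and lost the call in 18 of 23 alternatives. It was at 144 and 174 CPM in DEX+TNF 1 and 2 and at 33.8 and 21.0 in libraries 3 and 4. Without DEX+TNF 3 and 4, 12 of 54 tested pathway genes passed, beside 10.5% of all genes. Among them were Junb (3.06), Acvr1c (-2.69), Atoh8 (-3.21), Bmp2 (1.73), Pmepa1 (1.35), Bmp3 (-1.42), Tcf12 (-1.15) and Tgif1 (1.12), which also changed with TNF alone, whereas Cdon (1.39), Ptch1 (-1.45) and Nedd4l (0.56) did not pass. The other 4, Bmpr2, Skil, Tgfb1 and Tgif2, were not called with TNF alone in the fit over all libraries. Of the 12, only Junb also passed after DEX over all 8 libraries.

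**Figure D5:**
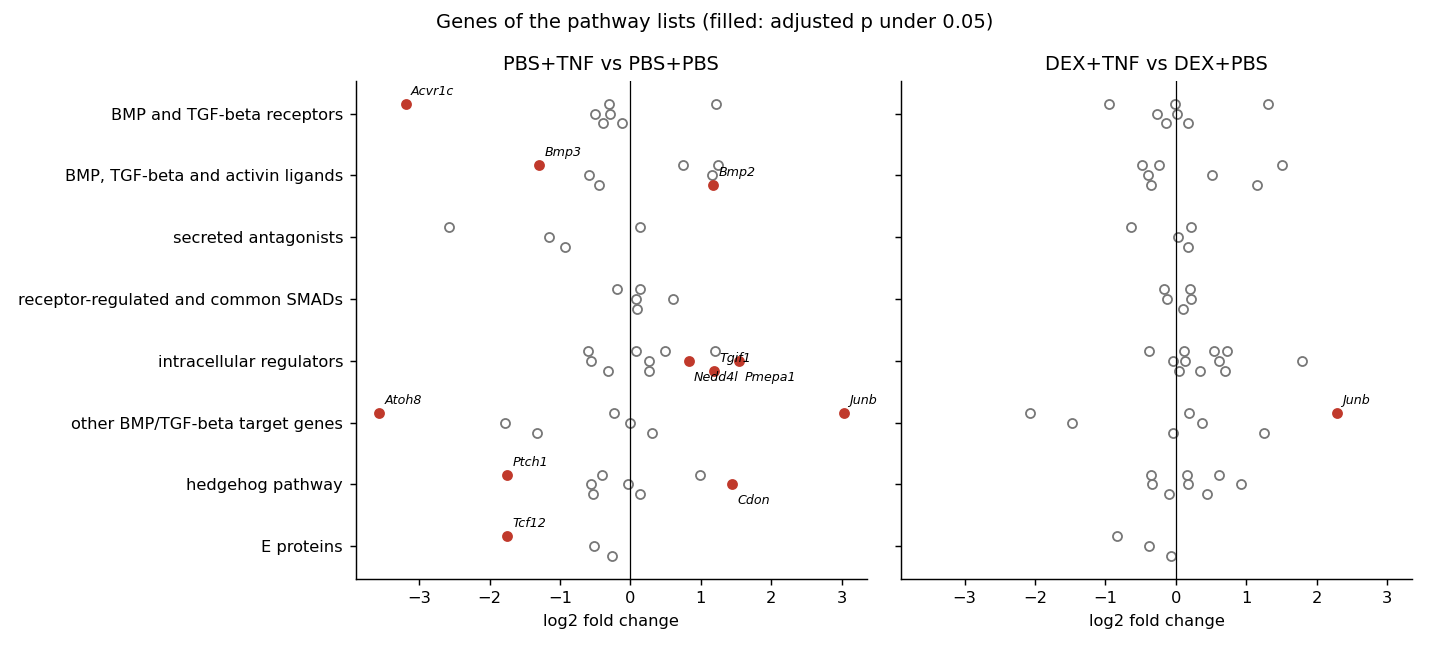
Log2 fold change of every tested gene of the 8 pathway lists for PBS+TNF against PBS+PBS (left) and DEX+TNF against DEX+PBS (right), with genes called at an adjusted p under 0.05 filled and named. With TNF alone 11 of 52 are filled, from Atoh8 at -3.57 to Junb at 3.03, and over all DEX+TNF libraries Junb alone is filled.

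Markers of other cells also moved with TNF alone. Of the enterocyte markers, Anpep was called lower, and the enterocyte sums of PBS+TNF and PBS+PBS given above did not overlap. Of the 4 stem cell markers, Lgr5 and Smoc2 were called lower, with sums of 208 to 1192 CPM in PBS+TNF against 382 to 875 in PBS+PBS. Ihh is also expressed by enterocytes, and the part of these cells in the values of Ihh, Bambi and the lists was not tested. Library DEX+TNF 4 had the most enterocyte and tuft cell markers. Its Ihh level (6.33 CPM) and its Bambi level (121 CPM) were within the range of DEX+PBS. A single library cannot tell which cells these reads came from.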

How the data were processed

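RNA of flow-sorted Paneth cells was measured in 16 libraries (4 groups of 4), made with a stranded mRNA protocol. The values the authors deposited are unnormalized read counts, 1 row for each Ensembl gene. The authors aligned reads with STAR (2.7.10a per the submitters' processing notes) to GRCm39 with the GENCODE M30 annotation. The counting program and its handling of strand and of reads matching several genes are not given in the sources used here, so overlapping genes are uncertain. Gene names came from GENCODE M39, and 665 identifiers without a name carried 0.00519% of counts.

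Genes were filtered with filterByExpr (11809 kept), scaled with TMM (factors 0.418 to 1.50) and fitted over all libraries with edgeR 4.0.16 (quasi-likelihood, robust, 1 mean per group), with Benjamini-Hochberg adjustment per comparison. The SE is the log2 fold change divided by the square root of F. The fit was tested on simulated data. CPM are these counts per library size times the TMM factor. Levels per kilobase use merged exon length, and correlations and permutation tests use log2 CPM with a prior count of 2. P-values measure the spread between these libraries only.

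The 9 genes, the lists and the tests were chosen with earlier results of these data known. Named genes were the 9 genes, Nfkbia, Tnfaip3, pathway genes called in any comparison, the most abundant gene of each list and the 5 genes most correlated with Bambi and with Ihh. Bmp4, Grem1, Gli1 and Hhip, the markers named beside a sum, Bmpr2, Skil, Tgfb1 and Tgif2, and the ranges of Hpgd and Lfng were singled out after their values were seen. Results of some listed genes are not reported here. Alternatives were other scaling (median-of-ratios, upper-quartile), no low-count filter, DESeq2 1.42.0, only the groups compared, a replicate block, each library left out, DEX+TNF 3 and 4 left out together, and a prior count of 0.5.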

Additional observations from a re-analysis of the deposited data

Results flagged for a closer look

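In 5 of 80 groups of 4 libraries examined (20 genes), 1 library stood apart from the other 3 by more than Dixon's 95% critical value; chance alone does so in about 1 in 20 groups. Bambi in library DEX+PBS 3 was at 237 CPM against 99.98 to 116 in the other 3. Ihh in PBS+PBS 4 was at 13.1 CPM against 6.17 to 7.10. The TMM factor of PBS+PBS 4 was 0.503, and its 104 counts of Ihh lay within the 72 to 133 of the other 3. Id2 in the same library, PBS+PBS 4, was at 5.78 CPM against 0.514 to 1.15. Smad7 in PBS+TNF 1 was at 0.385 CPM, from 2 counts, against 1.44 to 1.57. Bmpr1a in PBS+TNF 3 was at 26.9 CPM against 32.2 to 32.7.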

How the results depend on the processing

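Bambi and Ihh kept a difference of -3.08 or below with TNF alone, and Tgfbr2 its call, under every alternative run. Without DEX+TNF 3 and 4 the genes called rose from 1 to 2 of 7 with TNF alone, from 0 to 2 of 9 after DEX and from 11 to 17 pathway genes with TNF alone (1 to 12 after DEX), Ihh after DEX reached -3.40 and passed, and these values turned sign: Id1 -0.70, Id3 -1.77 and Smad7 -0.52 after DEX, Tgfbr2 0.14 against PBS+TNF, and the interaction of Ihh -0.052. The 1 of 7 became 2, by Smad6, without the low-count filter, in DESeq2 and with the replicate block. The replicate numbers did not pair the libraries throughout (12 of 24 pairs with r over 0.1, from -0.37 to 0.50, and 7 of 16 libraries closest to their own number). Whether the numbers mark a batch was not tested. The block called 1482, 1, 0, 16 and 0 of all genes in the 5 comparisons in the order of the report. It turned Id2 with TNF alone to 0.13 and Id3 after DEX to -0.10. Pathway genes called after DEX went to 0 with upper-quartile factors, without the filter, with only the groups compared and with the block, and to 2 in DESeq2. With single libraries left out, the members called ran from 1 to 2 with TNF alone and from 0 to 1 after DEX (Tgfbr2, without DEX+TNF 3) and stayed at 0 elsewhere, and pathway genes called ran from 5 to 12 and from 0 to 4. So left out, Bambi after DEX ran from -0.77 to 0.11, turning sign without DEX+PBS 3, and Ihh from -1.88 to -1.03. Low genes turned sign too: Id2 (-0.71 to 0.79) and Id3 (-1.46 to 0.37) with TNF alone, Id1 (-0.61 to 0.91), Id3 (-0.87 to 0.81) and Smad7 (-0.10 to 0.61) after DEX, and Ihh (-0.025 to 0.50) with DEX alone. The cause of these changes was not tested. Over all genes, the 1476 calls with TNF alone (844 higher, 632 lower) became 747 and 865 with upper-quartile factors, which moved the median from -0.03 to -0.15; they were 916 without PBS+PBS 1 and 2166 without DEX+TNF 3 and 4. The 40 calls after DEX were 241 in DESeq2, 6 without the filter, 0 with only the groups compared, 0 to 362 with single libraries left out and 1286 without DEX+TNF 3 and 4, and the 40 against PBS+TNF were 245, 42, 0, 0 to 102 (the most without DEX+TNF 2, and 89 without DEX+TNF 1) and 0 in the same order. Smad6, Id1, Id2 and Id3 rest on 88 to 357 counts each in all libraries.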
